A study of Mus musculus with 2 samples.

Results

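The microRNA genes Mir199a-1, Mir199a-2, Mir199b and Mir214 were followed in skeletal muscle of newborn mice. They were taken by gene symbol, 4 of 1973 microRNA genes in the tables, by a rule that uses no measured value, although earlier results of these data were known when it was set. RNA under 30 bases was sequenced from 2 pieces of muscle of B6NCrl mice at postnatal day 0, each piece from 1 pup of unrecorded sex. Both belong to the same group (biological replicates 1 and 2 by their labels), so no condition was set against another, and both carry the same donor record, so the spread between them may be in part technical. The tissue was bulk muscle, in which fewer cells of a type and less RNA per cell cannot be told apart.

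A microRNA gene is transcribed as part of a longer RNA, cut to a hairpin and then to a mature strand from its 5′ arm (5p) or 3′ arm (3p). The seed, bases 2 to 8 of the mature strand, pairs with target messenger RNAs and lowers their output. The miR-199 and miR-214 genes lie antisense within dynamin genes, which encode GTPases that pinch off membrane vesicles. Mir199a-2 and Mir214 are made from the noncoding transcript Dnm3os, which the transcription factor Twist1 activates in the mouse and whose loss there causes skeletal defects. These microRNAs are known from mesenchymal cells such as fibroblasts and skeletal progenitors. In mouse muscle cells, miR-214 is known to target Ezh2, a subunit of the Polycomb complex that silences differentiation genes.

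The mature strands are shown because their identity decides which reads could be counted for which gene. All sequences are RefSeq entries on GRCm38.p6, written 5′ to 3′, and all 4 genes had a hairpin entry. Seeds are in capitals.
miR-199a-5p (Mir199a-2, chr1:162217844-162217866, plus strand, and Mir199a-1, chr9:21496537-21496559, minus strand): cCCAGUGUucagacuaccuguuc
miR-199a-3p (Mir199a-2, chr1:162217883-162217904, plus strand, and Mir199a-1, chr9:21496498-21496519, minus strand) and miR-199b-3p (Mir199b, chr2:32318524-32318545, plus strand): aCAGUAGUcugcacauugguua
miR-214-5p (Mir214, chr1:162223397-162223418, plus strand): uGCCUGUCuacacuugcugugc
miR-214-3p (Mir214, chr1:162223438-162223459, plus strand): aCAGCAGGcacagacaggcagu

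The 3p strand of 22 bases was thus letter for letter the same in all 3 miR-199 genes, and the 5p strand of 23 bases the same in both Mir199a genes. The 5 annotated names came down to 4 different seeds. The seed of miR-214-3p differed from that of miR-199a-3p at 2 of 7 bases. Outside the 4 genes, 1 mouse microRNA in the RefSeq table shared a seed with an arm of theirs, miR-761 with miR-214-3p. Its gene Mir761 held 0 counts in replicate 1 and 2 in replicate 2, both under the 3 counts taken as a detection floor.
miR-761 (Mir761, chr4:109017669-109017690, plus strand): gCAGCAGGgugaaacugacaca

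The hairpins are shown whole because the bases around the arms are what tells the paralogs apart. Annotated mature arms are in capitals.
Mir199a-1 hairpin: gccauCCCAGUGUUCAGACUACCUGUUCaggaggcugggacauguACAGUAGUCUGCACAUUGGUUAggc
Mir199a-2 hairpin: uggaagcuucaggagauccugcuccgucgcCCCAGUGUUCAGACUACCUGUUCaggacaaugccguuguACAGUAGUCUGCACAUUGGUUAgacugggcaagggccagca
Mir199b hairpin: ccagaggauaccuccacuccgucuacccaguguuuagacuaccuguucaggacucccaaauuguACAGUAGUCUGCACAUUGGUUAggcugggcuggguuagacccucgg
Mir214 hairpin: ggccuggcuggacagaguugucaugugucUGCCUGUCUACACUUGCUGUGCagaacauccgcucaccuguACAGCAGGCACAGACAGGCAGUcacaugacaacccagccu

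In Mir199b, hairpin bases 26 to 48 face the miR-199a-5p strand and differ from it at 1 position. Counted from 1 at the 5′ end of miR-199a-5p, the change was C10U, outside the seed. The RefSeq entries used here name no mature strand for this stretch, so its lower case in the hairpin above marks a missing entry only. Whether a mature strand is made from it was not tested. The stretch is printed with its changed base in capitals.
Mir199b bases 26 to 48 (chr2:32318485-32318507, plus strand): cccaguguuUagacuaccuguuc

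The authors kept reads with several possible places out of the gene counts. Each hairpin was therefore searched in windows of 22 bases, on both strands, against all other GENCODE microRNA hairpins that do not overlap it. The rest of the genome was not searched. In Mir199a-1, 13 of 49 windows recurred in another hairpin, in Mir199a-2 12 of 89, in Mir199b 8 of 89 and in Mir214 0 of 89. With windows of 20 bases Mir214 again had 0 of 91. Of all 365 detected genes (at least 10 counts in both libraries), 64 (17.5%) had such a window, while 3 of the 4 genes here did, having been named as a family.

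The shared stretches lay over the mature arms. In Mir199a-2 the 5p arm belonged to a run of 27 bases held also by Mir199a-1, which went 4 bases past the arm's 3′ end. A read that starts at the first base of miR-199a-5p fits 1 of the 2 hairpins alone only from a length of 28 bases, close to the size limit of these libraries. A read that starts at the first base of the 3p arm does so from 24 bases in Mir199a-2 and from 26 in Mir199b. For the same arm of Mir199a-1 no length sufficed within the annotated hairpin, which ends 3 bases after the arm. The facing stretch of Mir199b, with its single changed base, recurred in no other hairpin, even at 15 bases, the shortest length searched. Counts of the Mir199a genes, and of the 3p arm of Mir199b, are lower limits for this reason. The tables give 1 count per gene, so the arm a count came from is not known.

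**Figure D1:**
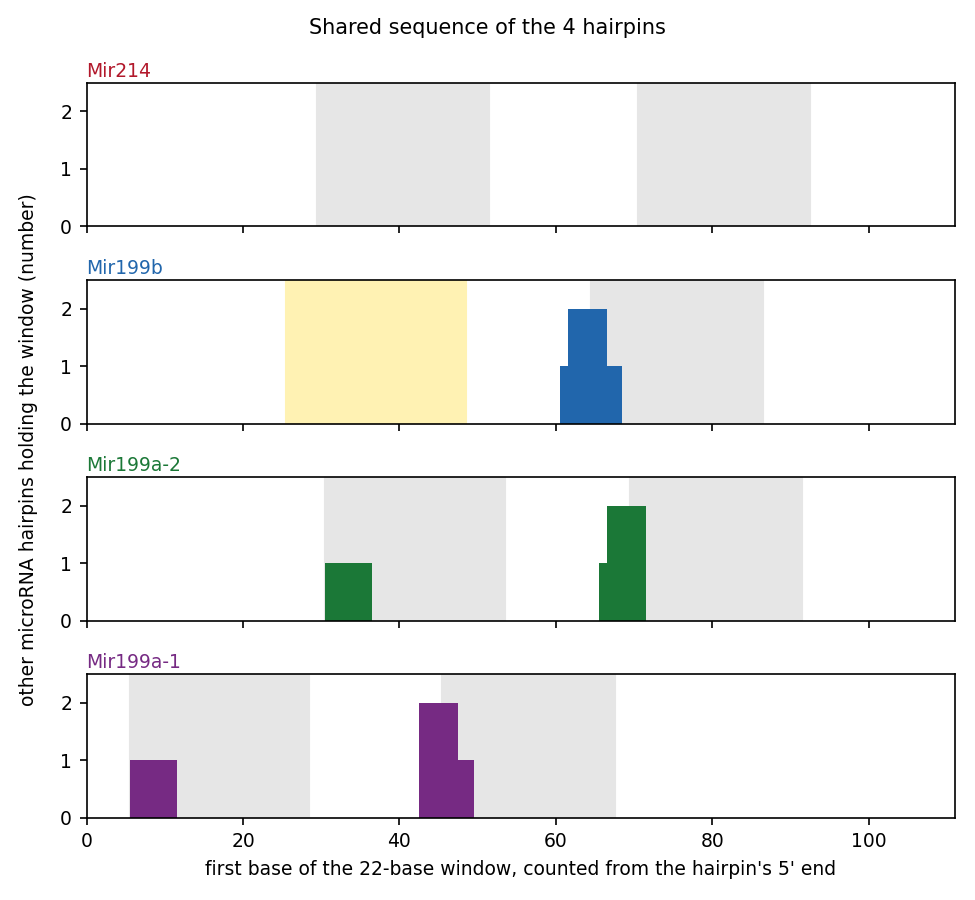
Number of other microRNA hairpins (y axis) that hold each 22-base window, by the window's first base from the hairpin's 5′ end (x axis). Grey marks annotated mature arms and yellow the Mir199b stretch that faces miR-199a-5p. Bars stand at the arms of the miR-199 genes, up to 2 other hairpins, while the yellow stretch and the whole of Mir214 carry none.

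Over whole hairpins, Mir199a-1 (70 bases) matched Mir199a-2 at 59 bases, 84.3% of the shorter hairpin, and Mir199b at 60 bases, 85.7%. Mir199a-2 matched Mir199b, both of 110 bases, at 85 bases or 77.3%. Against Mir214 the miR-199 hairpins reached 60.9% to 62.9% in the same global alignment. No baseline from unrelated hairpins is given, so these percentages do not say that Mir214 is related to the miR-199 genes.

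All 4 genes lay in introns of protein-coding dynamin genes and on the strand opposite to them (GENCODE M21 on GRCm38). Mir199a-1 lies on chromosome 9 at 21496495 to 21496564, minus strand, within Dnm2. Mir199b lies on chromosome 2 at 32318460 to 32318569, plus strand, within Dnm1. Mir199a-2 (162217814 to 162217923) and Mir214 (162223368 to 162223477) lie on the plus strand of chromosome 1 within Dnm3, with 5444 bases between them. On their own strand this pair overlaps Dnm3os at 162217623 to 162225550. Each of the 2 hairpins lies whole within an exon of 2 of the 6 annotated Dnm3os transcripts, and exons overlap Mir199a-2 in 5 of the 6 and Mir214 in 3.

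**Figure D2:**
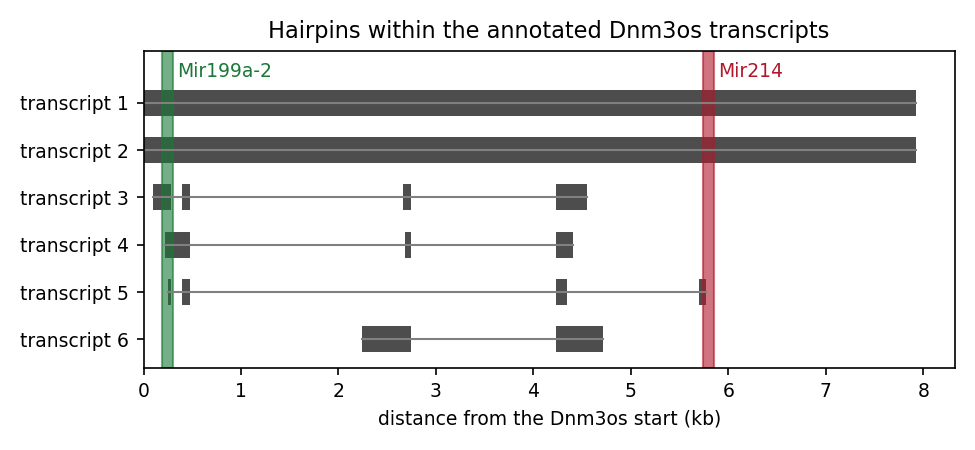
Exons (bars) and introns (lines) of the 6 annotated Dnm3os transcripts by distance from the start of Dnm3os in kb (x axis), with both hairpins as coloured bands. Transcripts 1 and 2 are single exons that contain both hairpins whole.

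No other annotated microRNA gene lies within 10000 bases of Mir199a-1. Within that distance of Mir199b stands 1, Gm23363, 116 bases away, with 3 and 2 counts in replicates 1 and 2.

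Replicate 1 held 16398945 reads and replicate 2 held 21037937, of which 7955914 and 10816295 fell to a microRNA gene on its own strand. Levels are given in CPM, counts scaled so that those of a library sum to 1000000, without division by length, since the RNA sequenced was a short strand whatever the hairpin's length. The labelled tissue was checked by Mir206, the skeletal muscle microRNA, which ranked first with 107144 CPM in replicate 1 and 120690 CPM in replicate 2. That rank is one of uniquely placed reads. Of the other muscle genes, Mir133b averaged 832 CPM, Mir208b 747 and Mir499 493. Mir1a-1 averaged 8.26 CPM, Mir133a-1 5.73 and Mir1b 1.78, and Mir133a-2 was not detected. These Mir1 and Mir133a genes each share a window of 22 bases with another hairpin, so reads fitting several places are missing from their counts. Counting error is all that intervals and floors express, since reads without molecular identifiers are not independent molecules.

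Mir214 was the most abundant of the 4 genes, with 43183 counts in replicate 1 and 47101 in replicate 2. These were 5428 CPM (95% Poisson interval 5377 to 5479) and 4355 CPM (4315 to 4394), a mean of 4891 ± 759 (SD, n = 2). Mir214 stood at rank 35 of the 365 detected genes by mean CPM, and at 36 and 39 within replicates 1 and 2.

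Mir199b, the paralog in Dnm1, came next with 9235 and 6478 counts in replicates 1 and 2. Its level was 1161 CPM (1137 to 1185) in replicate 1 and 599 CPM (584 to 614) in replicate 2, a mean of 879.8 ± 397 (SD, n = 2), at rank 97. Within the libraries it ranked 82 and 107, so that its place shifted more than that of Mir214.

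Mir199a-2, which shares its transcript with Mir214, had 931 and 616 counts in replicates 1 and 2. Its level was 117 CPM (109.6 to 125) in replicate 1 and 57.0 CPM (52.5 to 61.6) in replicate 2, a mean of 87.0 ± 42.5 (SD, n = 2). Rank 183 put it exactly in the middle of the 365 detected genes, whose median level was its own 87.0 CPM.

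Mir199a-1, the paralog in Dnm2, was the lowest, with 92 and 71 counts in replicates 1 and 2. Its level was 11.6 CPM (9.32 to 14.2) in replicate 1 and 6.56 CPM (5.13 to 8.28) in replicate 2, a mean of 9.06 ± 3.54 (SD, n = 2), at rank 267. Of the detected genes, 26.8% lay below it. The order Mir214, Mir199b, Mir199a-2, Mir199a-1 held in both libraries, and at each step the lower value of a gene exceeded the higher value of the next. Because shared reads are missing to an unlike extent, this is the order of uniquely placed reads and not of the mature strands in the tissue.

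**Figure D3:**
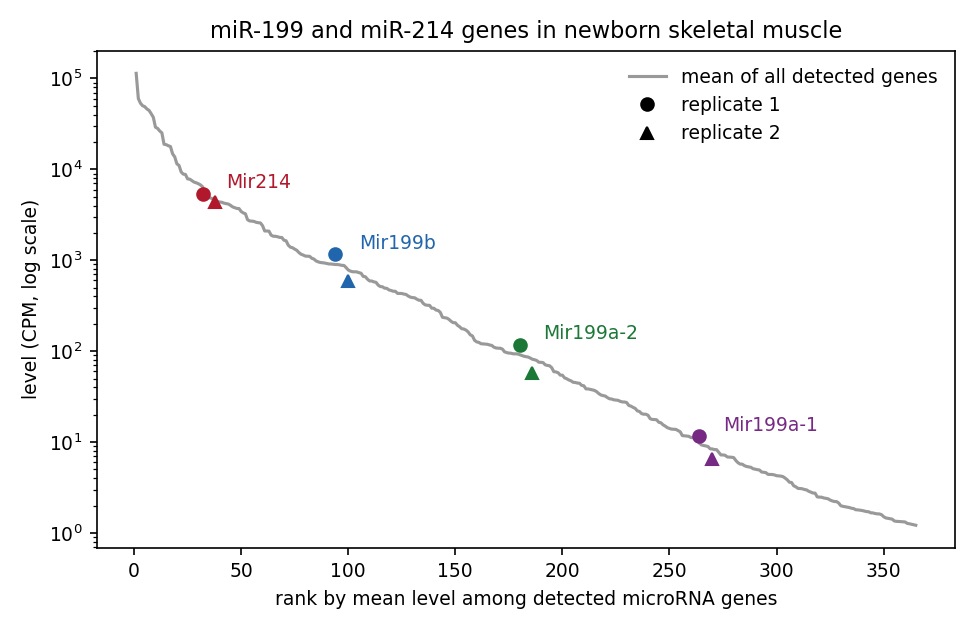
Level in CPM (y axis, log scale) against rank by mean level (x axis) for the 365 detected genes (grey line), with the 4 genes in each replicate (circles for replicate 1, triangles for replicate 2, set 3 ranks to either side of the gene's rank). The 4 genes spread from rank 35 to rank 267, and replicate 1 lies above replicate 2 in each.

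Together the 4 genes took 0.672% of annotated-strand counts in replicate 1 and 0.502% in replicate 2 (53441 and 54266 counts), a mean of 0.587% ± 0.120 (SD, n = 2). Mir214 alone made up 80.8% and 86.8% of their counts. The reads with several possible places numbered 4594061 and 5655304, which is 86.0 and 104 times the counts of the 4 genes. How many of those were miR-199 reads is not recorded.

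Almost no read fell on the strand opposite to these genes, on which the dynamin messenger RNAs are made. The opposite strand of Mir199b held 1 of 9236 counts in replicate 1 and 0 of 6478 in replicate 2. Over the 4 genes it was 1 of 53442, or 0.00187% (Clopper-Pearson 95% interval 4.74e-05% to 0.0104%), and 0 of 54266, which allows a share of up to 0.00680% (Clopper-Pearson upper limit; 3 counts would be 0.00553%). Pooled over the counts of all microRNA genes, 10.7% and 11.9% in replicates 1 and 2 lay on the opposite strand. A pooled share can rest on few genes, and the share usual for a single gene was not computed. Counting either strand moved none of the 4 counts by more than 1.

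Ratios within a library need no scaling between libraries. In uniquely placed reads, the 3 miR-199 genes, which lie on 3 chromosomes, had nearly the same mix in both libraries. Because they share mature arms, this is the mix of reads that could be placed. The output of each gene was not tested. Mir199b made up 90.03% of their counts in replicate 1 and 90.4% in replicate 2 (Clopper-Pearson 95% intervals 89.4% to 90.6% and 89.7% to 91.1%). Mir199a-2 made up 9.08% and 8.60%, and Mir199a-1 0.897% and 0.991%, each with overlapping intervals. Mir199b exceeded Mir199a-2 9.92-fold (9.27 to 10.6) in replicate 1 and 10.5-fold (9.68 to 11.4) in replicate 2. Mir199a-2 exceeded Mir199a-1 10.1-fold (8.16 to 12.7) and 8.68-fold (6.78 to 11.3).

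In uniquely placed reads, the ratio of Mir214 to its transcript partner was not the same in both libraries. Mir214 exceeded Mir199a-2 46.4-fold (43.5 to 49.5) in replicate 1 and 76.5-fold (70.6 to 82.9) in replicate 2, a mean of 61.4 ± 21.3 (SD, n = 2). Against Mir199b it stood 4.68-fold (4.57 to 4.78) and 7.27-fold (7.08 to 7.46) higher. For Mir199a-2 and Mir199b the counting intervals of the 2 libraries lay apart. Over Mir199a-1, with under 100 counts a library, Mir214 stood 469-fold (383 to 582) and 663-fold (526 to 849.6) higher, with overlapping intervals. The intervals of both ratios among the miR-199 genes overlapped as well. The miR-199 counts leave out reads that fit several of these genes. The folds of Mir214 over them are therefore upper limits, provided that Mir214 itself lost no reads. Whether the part of miR-199 reads left out differed between the libraries was not tested. With 2 libraries, a difference between them has no replicate check.

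**Figure D4:**
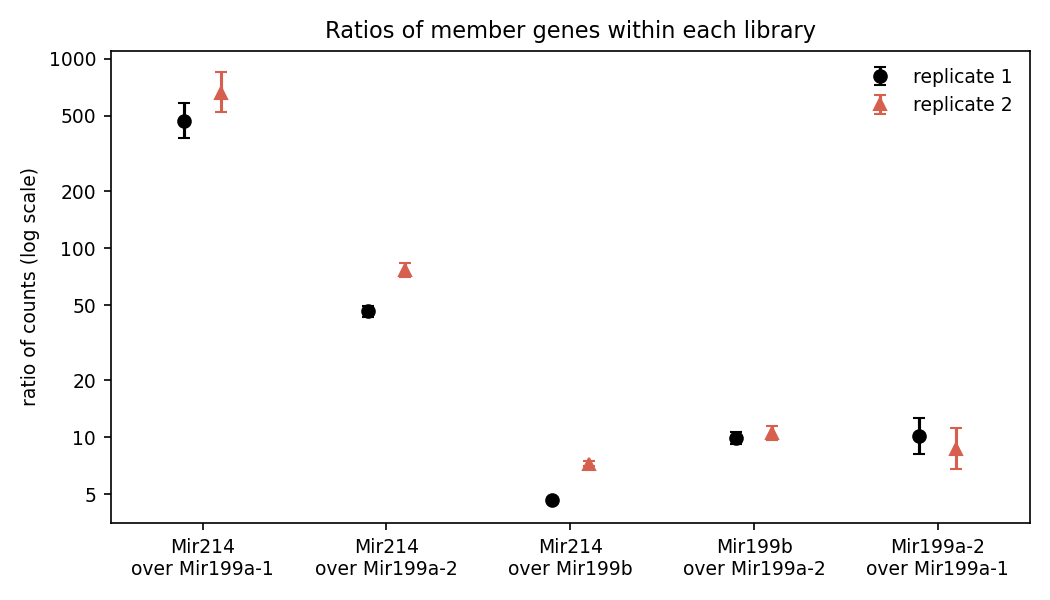
Ratios of counts between pairs of the genes within each library (y axis, log scale; circles for replicate 1, triangles for replicate 2; bars are exact 95% counting intervals). Mir214 over Mir199a-2 (46.4 and 76.5) and over Mir199b (4.68 and 7.27) differed between the libraries beyond counting error, while Mir214 over Mir199a-1 (469 and 663) and both ratios among miR-199 genes had overlapping intervals.

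Between the libraries, library sizes were scaled by the trimmed mean of M-values (TMM), and 1 CPM was added before taking log2. The log2 ratio of replicate 1 over replicate 2 was 0.78 for Mir199a-2 (95% counting interval 0.65 to 0.94), 0.71 for Mir199b (0.66 to 0.76) and 0.51 for Mir199a-1 (0.11 to 1.04). For Mir214 it was 0.07 (0.05 to 0.09). The intervals were taken from the split of counts without the added 1 CPM, and without it the ratio of Mir199a-1 was 0.57. These ratios compare 2 libraries of the same group and not conditions.

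None of the 4 genes reached 2-fold, against 4.38% of the 365 detected genes in either direction (16 genes, of which 13, or 3.56%, were higher in replicate 1 and 3, or 0.822%, in replicate 2). All 4 ratios were above 0, as were 192 of the 365 (52.6%). The median of the 4 was 0.61, beside 0.01 over all detected genes. Of the detected genes, 91.2% had a lower ratio than Mir199a-2, 89.04% a lower one than Mir199b, 83.3% a lower one than Mir199a-1 and 55.3% a lower one than Mir214. The 3 miR-199 genes share sequence, so their ratios are not independent observations.

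With library totals in place of TMM, an alternative that moved all ratios up by about 0.24, Mir199a-2 reached 1.03 and so passed 2-fold, as did 9.04% of detected genes in that direction. Mir199b then stood at 0.95 and Mir214 at 0.32.

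Markers of other cell types are given as sums of CPM without TMM scaling and as TMM-scaled log2 ratios. The 7 genes of the epithelial and skin list, all detected, summed to 531 CPM in replicate 1 and 334 CPM in replicate 2, with a median log2 ratio of 1.88. The 5 genes above 0 were those of the miR-200 family, of which 4 were at least 2-fold higher in replicate 1, with Mir200b highest at 2.20. Among them Mir429 averaged 54.5 CPM ± 50.7 and Mir200c 35.8 ± 33.6 (SD, n = 2). The most abundant gene of the list, Mir203 of the skin, averaged 280.1 CPM ± 16.6 and lay below 0 at -0.12, as did Mir205 at -0.06.

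The erythroid genes Mir451a (404 CPM ± 204) and Mir144 (29.9 ± 6.53) summed to 583 CPM in replicate 1 and 286 CPM in replicate 2, with log2 ratios of 0.83 and 0.20. The leukocyte list, with 3 of its 5 symbols found and all 3 detected, summed to 634 CPM and 478 CPM, with a median log2 ratio of 0.14. Its genes were split, with Mir223 (465 CPM ± 88.3) at 0.14, Mir155 (45.2 ± 21.3) at 0.74 and Mir150 (45.5 ± 0.692) at -0.21. Mir122 of the liver had 86.4 CPM and 153 CPM, a log2 ratio of -1.06 that put it past 2-fold toward replicate 2. Of the 8 neuronal genes found by symbol, 3 were detected. The 8 summed to 966 CPM and 965 CPM in replicates 1 and 2, led by Mir128-1 (456 CPM ± 41.1), Mir128-2 (389 ± 48.9) and Mir132 (121 ± 8.70). Mir9-2 had 1 count in each library and Mir9-3 had 2 and 8, under the count minimum. All neuronal genes but Mir132 share a window of 22 bases with another hairpin, so their counts leave out reads fitting several places. The 3 Mir124a genes of that list were at 0 in both libraries, but each shares a window of 22 bases with another hairpin, so that reads fitting several places are missing there and the 0 says nothing about neurons. No gene of the other lists was at 0 in both libraries. The part of these cell types in the levels of the miR-199 genes was not tested.

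**Figure D5:**
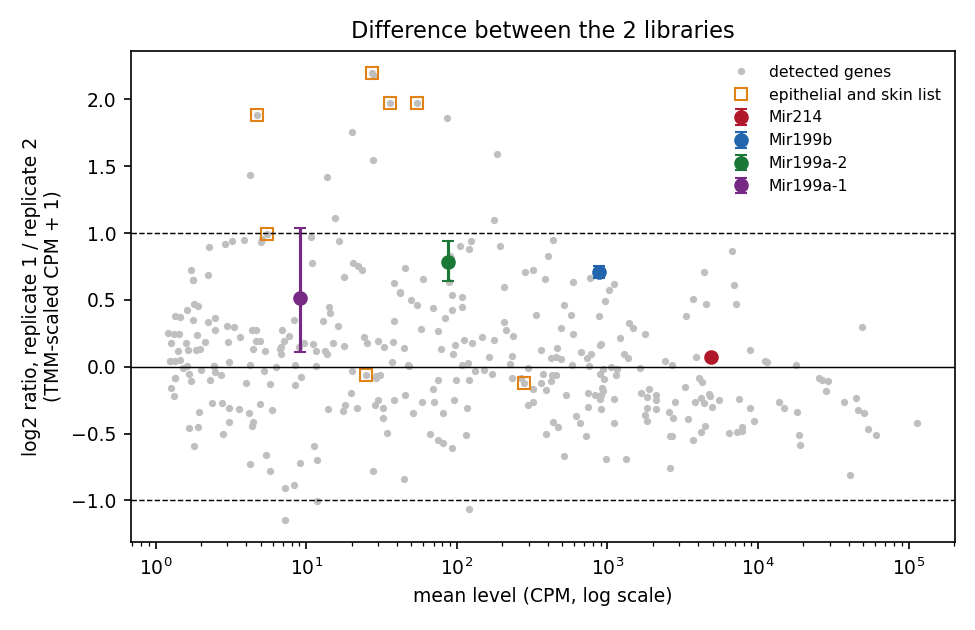
Log2 ratio of replicate 1 over replicate 2 (y axis, TMM-scaled CPM plus 1) against mean level (x axis, log scale) for the 365 detected genes, with the 4 genes coloured (bars are 95% counting intervals), the epithelial and skin list as open squares and dashed lines at 2-fold. The bars, unlike the points, leave out the added CPM. The 3 miR-199 genes lie between 0.51 and 0.78, Mir214 at 0.07, and 4 epithelial genes above the upper line.

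In uniquely placed reads, 12 other microRNA genes listed as linked to connective tissue or fibrosis were more abundant in sum than the 4 genes. The 12 include all of the smooth muscle list (Mir143, Mir145a and Mir145b) and of the cartilage list (Mir140 and Mir455). Their sum is therefore not one of connective tissue alone. Of the 12, only Mir143, Mir22 and Mir21a averaged above Mir214 (4891 CPM), and Mir140 came next at 1165 CPM. All 12 listed genes were in the tables and 9 were detected. They summed to 57890.5 CPM in replicate 1 and 51119.8 CPM in replicate 2. The 4 genes amounted to 0.116 and 0.0981 of that sum, shares that hold for uniquely placed reads only. With TMM scaling the sums were 53170 CPM and 55658 CPM, so their order between the libraries turned. None of the 9 was 2-fold apart between the libraries, 5 were above 0, and their median log2 ratio was 0.07.

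The list was led by Mir143 of smooth muscle and pericytes (29128 CPM ± 1961, SD, n = 2). Mir22, linked to growth of the heart muscle in the mouse, had 14837 ± 471. Mir21a, known to rise in fibrosis, had 6956 ± 2845, with 8967 CPM in replicate 1 and 4944 CPM in replicate 2. Its log2 ratio of 0.61 was near those of the miR-199 genes, while Mir143 (-0.11) and Mir22 (-0.31) lay below 0. Of the collagen-repressing miR-29 genes, Mir29a had 163 CPM ± 25.3 (rank 156 of 365) and Mir29c 79.0 ± 14.7 (rank 188). Mir29b-1 had 15 and 4 counts and Mir29b-2 had 5 and 6 in replicates 1 and 2, under the count minimum, and both share windows of 22 bases with another hairpin.

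Against the other marker lists, the 4 genes summed to 6717 CPM and 5017 CPM in replicates 1 and 2. The skeletal muscle list, of which 8 of 9 genes were found by symbol, summed to 109281 CPM and 122732 CPM, led by Mir206, Mir133b (832 CPM ± 12.6) and Mir208b (747 ± 21.6). Endothelial Mir126a stood at 44986 CPM and 47428 CPM. The smooth muscle genes Mir143, Mir145a (890.5 CPM ± 177) and Mir145b (1 and 0 counts) summed to 31531 CPM and 28506.5 CPM. These sums too are of uniquely placed reads and without TMM scaling. The cartilage genes Mir140 and Mir455 summed to 2205 CPM and 1968 CPM, so that the 4 genes exceeded them 3.05-fold and 2.55-fold.

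The 3 genes nearest in level to each of the 4 were found by the distance between log2(CPM + 1) values over both libraries. Nearest to Mir214 were Mir154 (distance 0.20), Mir298 (0.21) and Mir99b (0.26), with log2 ratios of -0.20, -0.22 and -0.30. Nearest to Mir199b were Mir425, Mir148a and Mir342 (0.24 to 0.29). Mir199a-2 lay closest to Mirlet7a-1 (0.06), Mir669o (0.10) and Mir1981 (0.12), all with ratios between 0.64 and 0.83. Mir199a-1 was nearest to Mir1a-1 (0.19), Mir6945 (0.26) and Mir6236 (0.29). Likeness over 2 libraries describes level and difference in uniquely placed reads only, and Mir1a-1 too shares a window of 22 bases with another hairpin. For the other nearest genes such sharing is not given here, so their counts may lack reads as well.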

How the data were processed

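For each of 2 libraries the authors deposited raw counts for 1973 microRNA genes, on either strand and on each strand, plus 4 rows that name no gene (unmapped, multimapping, no-feature and ambiguous reads). The assembly was mm10 and the annotation GENCODE M4, per the readme text deposited with the tables. Which aligner and counter were used is not given in the sources used here. The second count column was read as the annotated strand because it holds most counts, an inference from the values. Rows naming no gene stayed out of CPM and scaling, and multimapping reads made up 28.01% and 26.9% of reads in replicates 1 and 2.

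Of 1973 IDs, 1894 matched GENCODE M21, which supplied symbols, positions and hairpins for the window search. Of the marker lists, Mir142, Mir142a, Mir1a-2 and Mir9-1 were not found by symbol and may be among the unmatched IDs. Detected genes had at least 10 counts in both libraries. TMM factors were 1.09 and 0.918 (edgeR 4.0.16, R 4.3.3). Intervals are exact (scipy 1.17.1), and hairpins were aligned with Biopython 1.88. The calculation of ratios was tested on simulated counts that held counting error only, which says nothing about the spread between samples. Called means a ratio of at least 2-fold with 1 CPM added, and no p-value was computed, since the samples form 1 group.

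The 4 genes were taken by symbol. Also named were the 3 nearest genes to each, genes sharing a seed, and the up to 3 highest of each marker list, the others being counted. Mir200b, Mir205, Mir124a, Mir29a, Mir29c, Mir29b-1, Mir29b-2, Mir499, Mir133a-1, Mir133a-2, Mir1b and Gm23363 were chosen after their values were seen. Members and lists were chosen with earlier results of these data known.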

Additional observations from a re-analysis of the deposited data

How the results depend on the processing

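The share of the 4 genes was 0.292% with all reads of the library as denominator, beside 0.587% of microRNA counts, and their CPM fell alike to 2436 for Mir214, 436 for Mir199b, 43.03 for Mir199a-2 and 4.49 for Mir199a-1, since that denominator is larger. The number of genes at least 2-fold apart between the libraries was 16 as reported, 33 with library totals, 76 with a fold minimum of 1.5 and 30 with no pseudocount, an alternative added after seeing the data. Library totals took Mir199a-2 past 2-fold (1.03), and no other scaling, count minimum or pseudocount did so for any of the 4 genes. With a count minimum of 1 the log2 ratio was 0.79 for Mir199b and 0.16 for Mir214, and with a minimum of 50 it was 0.10 for Mir214. No direction reversed. Of 13 alternatives on shares, within-library ratios and that number of genes, not counting those that leave out a library, 9 stayed within the spread between the libraries or within 1.5 times the count. Among the 9, counting either strand was no check on the within-library ratios, since it moved none of the 4 counts by more than 1. With 2 libraries, leaving one out returns the other's value and is no check, and it gave 0.502% to 0.672% for the share of the 4 genes, 46.4 to 76.5 for Mir214 over Mir199a-2, 9.92 to 10.5 for Mir199b over Mir199a-2 and 8.68 to 10.1 for Mir199a-2 over Mir199a-1. Mir199a-1 rests on under 100 counts a library, which limits its precision. No paired analysis was possible because the samples form 1 group.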
